A study of Schizosaccharomyces pombe with 12 samples.

Results

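The Sty1 Atf1 core stress genes are 9 fission yeast loci, chosen by name and systematic ID: the kinase gene sty1 (SPAC24B11.06c), the transcription factor genes atf1 (SPBC29B5.01) and pcr1 (SPAC21E11.03c), and the stress genes gpd1 (SPBC215.05), tps1 (SPAC328.03), ntp1 (SPBC660.07), hsp9 (SPAP8A3.04c), ddr48 (SPAC23H3.15c) and rds1 (SPAC343.12). They are 9 of the 6986 loci in the count table, and all 9 were among the 6110 loci that passed the filter on low counts. The choice was made with their differences between these strains already known, so the values of the 9 genes are given as a description, with no test.

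Sty1 is a stress-activated MAP kinase, the fission yeast relative of mammalian p38. When cells meet osmotic, oxidative, heat or nutritional stress, the MAP kinase kinase Wis1 activates Sty1, which enters the nucleus and phosphorylates Atf1. Atf1 is a bZIP transcription factor that works as a heterodimer with Pcr1 and induces a broad set of protective genes, the core environmental stress response.

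Poly(A)+ RNA was sequenced from 3 mutants and from wild-type cells, with 3 biological replicates of each strain and 12 libraries in all. The mutants lack Ppn1, Swd22 or Dis2, which form a module of the cleavage and polyadenylation factor. Ppn1 is the relative of mammalian PNUTS, Swd22 is a WD-repeat protein, and Dis2 is a protein phosphatase 1 catalytic subunit. The genotypes are h+ ppn1∆::HygMX, h+ swd22::HygMX, h+ dis2∆::NatMX and h+ for the wild-type. All strains share the h+ mating type and were harvested from log-phase YES cultures kept at 30 °C, and the labels name no stress. Each mutant is represented by 1 strain number in the labels, so differences among independent isolates of a deletion cannot be seen. Loss of Ppn1, Swd22 and Dis2 was compared at the level of gene expression to learn how the module affects specific genes.

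The libraries held 17616688 to 23435936 counts, with a median of 20788283. Each deleted gene was low in its own mutant: ppn1 had 86 to 150 counts in ppn1Δ libraries, against 462 to 549 in wild-type libraries, swd22 had 10 to 26 counts in swd22Δ libraries, against 1407 to 1618, and dis2 had 646 to 900 counts in dis2Δ libraries, against 11788 to 12259. These counts are of whole annotated loci. The paper reports that the coding sequence itself drew no reads in the matching null strain. The labels state vegetative growth. A list of 7 mating and meiosis genes that starvation induces was detected in every library, with none at 0, and its summed normalized count was 2047 to 2308 in ppn1Δ, 2343 to 2585 in swd22Δ, 3013 to 3724 in dis2Δ and 7311 to 9395 in wild-type cells. This sum was thus lower in every mutant library than in every wild-type library. Much of the wild-type sum came from ste11, whose values are given below, so the sum leans on that gene. Of the single genes, 5 of the 7 were lower in each mutant by edgeR's test (adjusted p at or below 0.05). In ppn1Δ, 1 of them was higher. The part of this list in the values below was not tested. In these bulk RNA samples, fewer cells in a state and less RNA per cell cannot be told apart.

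Normalized counts below are counts scaled by edgeR's TMM factors to a common library of 20838181 counts. Log2 fold changes are mutant minus wild-type from 1 fit of all 12 libraries and carry their standard error (SE). A locus is said to pass the study's cutoffs where edgeR's quasi-likelihood test gives an adjusted p of 0.05 or less, the difference is at least 2-fold and the mean normalized count is at least 100 in either strain.

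The 9 genes did not move as a block. The gene with the largest difference above wild-type was ddr48, at 8.83-fold the wild-type level in ppn1Δ, 4.89-fold in swd22Δ and 1.91-fold in dis2Δ. The gene farthest below wild-type was rds1, at 27.1% of the wild-type level in dis2Δ, 54.2% in ppn1Δ and 66.0% in swd22Δ. The glycerol and trehalose enzyme genes gpd1, tps1 and ntp1 lay at most 1.45-fold from wild-type in every mutant.

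Against wild-type, 2 of the 9 genes passed the cutoffs as higher in ppn1Δ (hsp9 and ddr48), where 1.67% of all loci tested did, and 0 as lower, where 1.78% did. In swd22Δ, 1 passed as higher (ddr48; 1.55% of all loci) and 0 as lower (1.72%). In dis2Δ, 0 passed as higher (1.75%) and 1 as lower (rds1; 1.03%). Because these contrasts were in view when the genes were chosen, nothing is read from the counts. All 9 mutant libraries lay below all 3 wild-type libraries for sty1, pcr1 and rds1, an arrangement found at 15.3% of all loci tested, and above them for ddr48, as at 12.4% of loci.

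**Figure D1:**
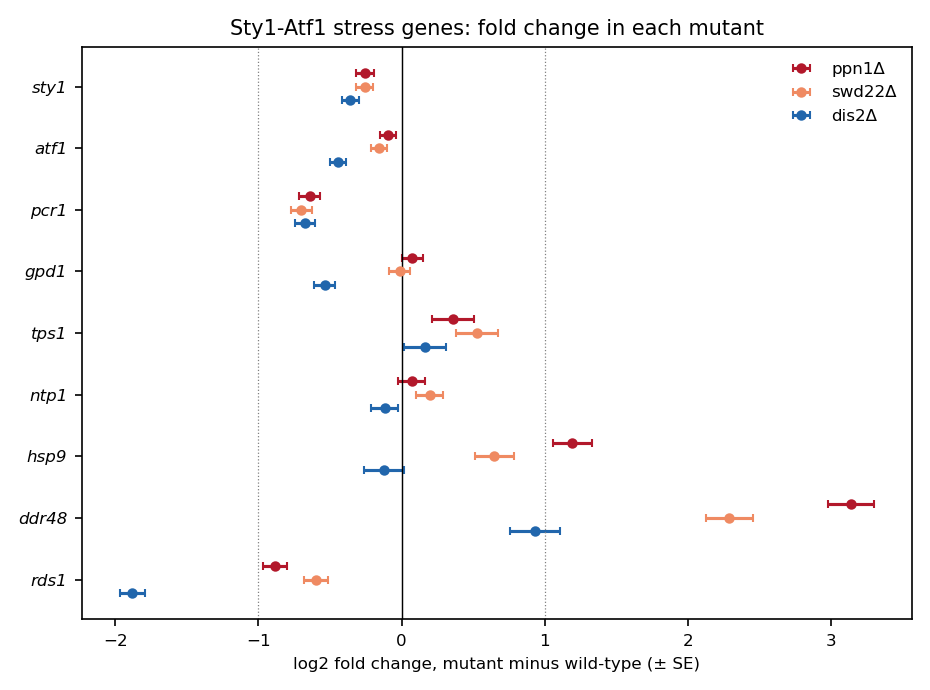
Log2 fold changes of the 9 genes, mutant minus wild-type (x axis, points with ± SE), for ppn1Δ, swd22Δ and dis2Δ, with dotted lines at 2-fold in each direction. ddr48 reached 3.14 in ppn1Δ and rds1 -1.88 in dis2Δ, while the 3 points of pcr1 lay together between -0.70 and -0.64.

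The kinase gene sty1 was modestly lower in all 3 mutants. Its normalized counts were 7236, 7298 and 6846 in ppn1Δ, 7087, 6916 and 7345 in swd22Δ, 6799, 6939 and 6164 in dis2Δ, and 8461, 8223 and 8844 in wild-type cells. The highest mutant library, at 7345, was below the lowest wild-type library, at 8223, and the mutants overlapped each other. The log2 fold changes were -0.26 in ppn1Δ, -0.26 in swd22Δ and -0.36 in dis2Δ (SE 0.06 each).

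Its main nuclear target, atf1, differed mostly in dis2Δ. Normalized counts were 4605, 4851 and 4483 in ppn1Δ, 4577, 4252 and 4501 in swd22Δ, 3745, 3671 and 3530 in dis2Δ, and 4962, 4764 and 5136 in wild-type cells. The dis2Δ libraries lay below those of every other strain, whereas the ppn1Δ and wild-type libraries overlapped. The log2 fold changes were -0.09 in ppn1Δ (SE 0.06), -0.16 in swd22Δ (SE 0.06) and -0.44 in dis2Δ (SE 0.06).

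The gene of its bZIP partner, pcr1, differed from wild-type by nearly the same amount in each mutant. It had 1332, 1460 and 1495 normalized counts in ppn1Δ, 1513, 1243 and 1367 in swd22Δ, 1353, 1407 and 1434 in dis2Δ, and 2229, 2150 and 2317 in wild-type cells. All mutant libraries sat between 1243 and 1513, below every wild-type library, and the 3 mutants overlapped. The log2 fold changes were -0.64, -0.70 and -0.68 in ppn1Δ, swd22Δ and dis2Δ (SE 0.07 each), which put the mutants at 64.0%, 61.6% and 62.6% of the wild-type mean.

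**Figure D2:**
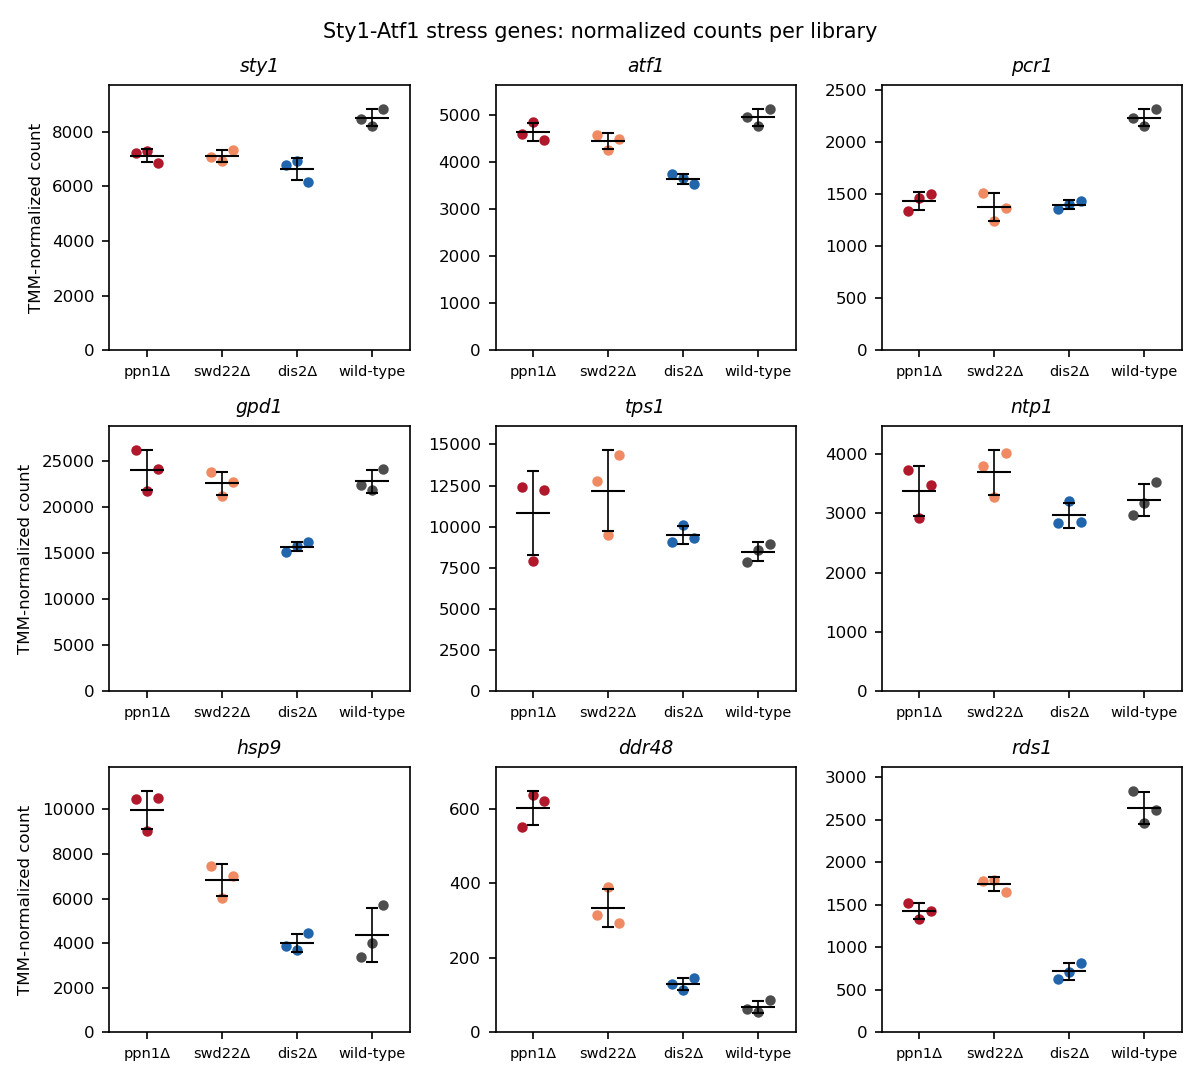
TMM-normalized counts (y axis, from 0) of the 9 genes in each library, by strain; points are libraries, and the horizontal mark and bar are the mean ± SD of 3. The ddr48 panel steps down in order from ppn1Δ (551 to 636) through swd22Δ and dis2Δ to wild-type (56 to 87), while in the rds1 panel the dis2Δ libraries (626 to 816) are the lowest and the wild-type libraries the highest.

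Among the target genes, gpd1 encodes the glycerol-3-phosphate dehydrogenase that makes the osmolyte glycerol. Its normalized counts were 26147, 21726 and 24177 in ppn1Δ, 23784, 21215 and 22687 in swd22Δ, 15167, 15773 and 16173 in dis2Δ, and 22374, 21814 and 24163 in wild-type cells. Only the dis2Δ libraries stood apart, with their highest value under the lowest of the other 9 libraries. The log2 fold change was -0.54 in dis2Δ (SE 0.07), against 0.08 in ppn1Δ and -0.01 in swd22Δ (SE 0.07 each).

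The trehalose genes varied more between replicates than gpd1 did. Trehalose-6-phosphate synthase, encoded by tps1, makes trehalose-6-phosphate on the way to the stress protectant trehalose. Its gene had 12403, 7914 and 12256 normalized counts in ppn1Δ and 12747, 9490 and 14354 in swd22Δ. It had 9074, 10103 and 9307 in dis2Δ, and 7838, 8613 and 8955 in wild-type cells. In ppn1Δ and in swd22Δ the second library was far below the other pair, and in ppn1Δ it fell within the wild-type range, so that the coefficient of variation was 23.5% in ppn1Δ and 20.3% in swd22Δ, against 6.76% in wild-type cells. Against wild-type, tps1 had log2 fold changes of 0.36 in ppn1Δ, 0.53 in swd22Δ and 0.16 in dis2Δ (SE 0.14 each). Without the second library of ppn1Δ, tps1 stood at 0.54 in that mutant, and without the second library of swd22Δ it stood at 0.68 in swd22Δ.

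Neutral trehalase, which degrades trehalose, is encoded by ntp1. Its gene had 3739, 2923 and 3483 normalized counts in ppn1Δ, 3799, 3270 and 4009 in swd22Δ, 2844, 3213 and 2855 in dis2Δ, and 2975, 3176 and 3522 in wild-type cells. Each mutant overlapped wild-type, and the log2 fold changes of 0.07, 0.20 and -0.12 in ppn1Δ, swd22Δ and dis2Δ (SE 0.09 each) were of the size of the spread between replicates. Leaving out each library in turn, the ppn1Δ value ran from -0.01 to 0.16.

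The second libraries of ppn1Δ and of swd22Δ were the lowest of their strain for gpd1, tps1, ntp1 and hsp9, but the highest of their strain for ddr48. The second ppn1Δ library was also the shallowest of the 12, with 17616688 counts, whereas the second swd22Δ library was the deepest of its strain, with 21150179. The part of depth in these values was not tested.

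The small heat shock protein gene hsp9, a relative of budding yeast HSP12, separated the mutants from each other. It had 10452, 9008 and 10502 normalized counts in ppn1Δ, 7456, 6045 and 7011 in swd22Δ, 3867, 3694 and 4467 in dis2Δ, and 3381, 4023 and 5704 in wild-type cells. The ppn1Δ libraries lay above all others and the swd22Δ libraries above those of dis2Δ and wild-type, while dis2Δ fell inside the wild-type range. Its log2 fold changes were 1.19 in ppn1Δ, 0.65 in swd22Δ and -0.12 in dis2Δ (SE 0.14 each). The third wild-type library, at 5704, was far from the other pair. Without it the values became 1.43 in ppn1Δ, 0.88 in swd22Δ and 0.11 in dis2Δ.

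ddr48 is named after a budding yeast gene induced by DNA damage and heat shock. Its normalized counts were 551, 636 and 622 in ppn1Δ, 316, 391 and 292 in swd22Δ, 130, 113 and 147 in dis2Δ, and 63.1, 55.5 and 87.1 in wild-type cells. No strain overlapped another, in the order ppn1Δ, swd22Δ, dis2Δ and wild-type from high to low. The log2 fold changes were 3.14 in ppn1Δ (SE 0.16), 2.29 in swd22Δ (SE 0.16) and 0.93 in dis2Δ (SE 0.18). The dis2Δ value lay just under the 2-fold cutoff, which it passed, at 1.03, without the second dis2Δ library and, at 1.13, without the third wild-type library. In wild-type cells ddr48 had fewer than 100 normalized counts, where counting noise adds to the spread.

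rds1 was first described as a gene repressed by adenine, and the annotation gives its protein no biochemical function. It had 1525, 1329 and 1429 normalized counts in ppn1Δ, 1782, 1795 and 1644 in swd22Δ, 626, 705 and 816 in dis2Δ, and 2840, 2462 and 2611 in wild-type cells. No strain overlapped another here either, but the order was different: wild-type was highest, followed by swd22Δ, ppn1Δ and dis2Δ. The log2 fold changes were -0.88 in ppn1Δ (SE 0.08), -0.60 in swd22Δ (SE 0.08) and -1.88 in dis2Δ (SE 0.09).

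Direct contrasts set the mutants against each other. These contrasts too were treated as known when the genes were chosen, so nothing is read from the counts past the cutoffs. Between dis2Δ and ppn1Δ, 2 of the 9 genes passed the cutoffs, both lower in dis2Δ, where 1.73% of all loci passed in either direction. They were hsp9, at a log2 difference of -1.32 (SE 0.14), and ddr48, at -2.21 (SE 0.15). The third gene near the boundary was rds1, which averaged 716 normalized counts in dis2Δ and 1428 in ppn1Δ, at the edge of the 2-fold cutoff, and passed without the second ppn1Δ library or without the third dis2Δ library.

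Between dis2Δ and swd22Δ, 2 genes passed, ddr48 at -1.36 (SE 0.15) and rds1 at -1.28 (SE 0.09), where 1.39% of all loci did. hsp9 was 0.77 lower on the log2 scale in dis2Δ (difference -0.77, SE 0.14) and gpd1 differed by -0.52 (SE 0.07). Between swd22Δ and ppn1Δ, 0 genes passed at a background of 0.0491%, with differences of -0.85 for ddr48 (SE 0.13), -0.55 for hsp9 (SE 0.14) and 0.29 for rds1 (SE 0.08). The contrasts share libraries with each other and with those against wild-type.

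Levels of different genes can be compared only per transcript length. On the RPKM scale (normalized counts per kilobase of annotated exon, scaled to library size), gpd1 was the highest of the 9 genes in swd22Δ, dis2Δ and wild-type cells, at 609 ± 34.8, 424 ± 13.7 and 615 ± 33.1 (SD, n = 3 each). In ppn1Δ, hsp9 at 666 ± 56.6 and gpd1 at 649 ± 59.8 RPKM overlapped. ddr48 was the lowest in every strain, at 22.2 ± 1.68 RPKM in ppn1Δ, 12.3 ± 1.89 in swd22Δ, 4.79 ± 0.64 in dis2Δ and 2.52 ± 0.61 in wild-type cells (SD, n = 3 each).

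Below hsp9 and gpd1, the order of the means was the same in all mutants and differed in wild-type cells. atf1 held the fifth place in each strain. In wild-type cells the levels below gpd1 ran hsp9 (291 RPKM), sty1 (246), tps1 (188), atf1 (85.2), pcr1 (73.4), rds1 (65.6) and ntp1 (50.5), and only hsp9 and sty1 had overlapping libraries. In dis2Δ they ran hsp9 (267), tps1 (211), sty1 (192), atf1 (62.7), ntp1 (46.6), pcr1 (46.0) and rds1 (17.8), with overlap of ntp1 and pcr1 only. In ppn1Δ the levels of tps1 (242) and sty1 (206) overlapped, as did ntp1 (53.0) and pcr1 (47.0), and rds1 followed at 35.5. In swd22Δ the overlapping neighbors were tps1 (271) with sty1 (206) and pcr1 (45.2) with rds1 (43.3). rds1 thus moved below ntp1 in every mutant. The exon lengths are those of the ASM294v3 annotation, which may differ from the ones used for counting.

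**Figure D3:**
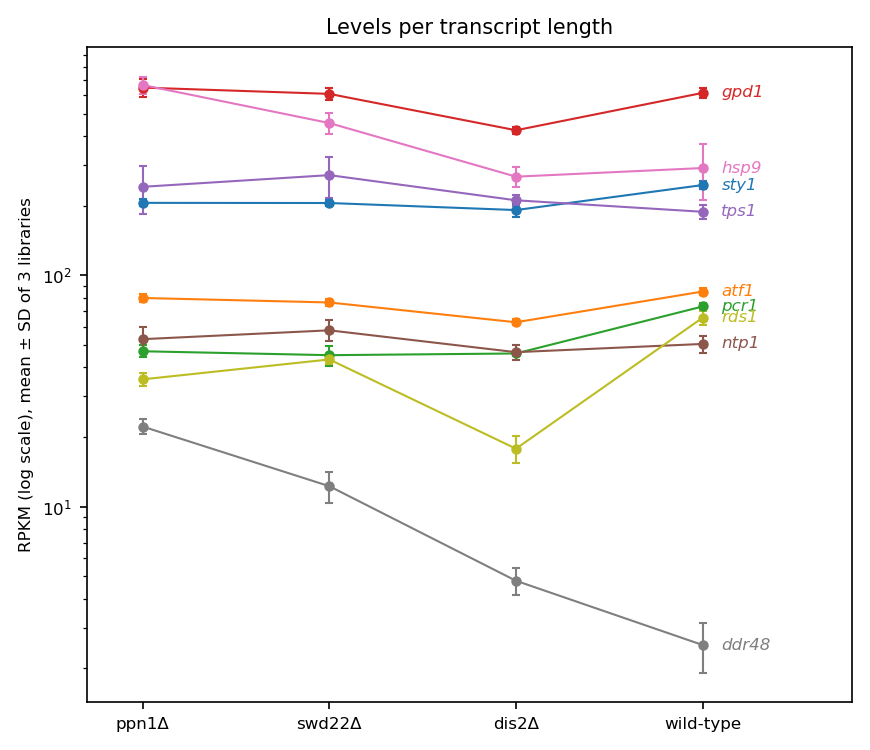
Mean RPKM ± SD of 3 libraries (y axis, log scale) of the 9 genes in each strain; lines only join points of 1 gene. gpd1 tops the order except in ppn1Δ, where hsp9 reached 666 RPKM, and ddr48 is the lowest gene throughout.

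Loci that overlap the 9 genes bear on how their counts are read. 6 of the genes lie on chromosome I and 3 (atf1, gpd1 and ntp1) on chromosome II. Most of ddr48 is overlapped on the opposite strand by the non-coding locus SPNCRNA.832, and most of rds1 by the coding locus SPAC343.20. From gene start to gene end, the overlaps span 1241 and 1712 bases. The exon lengths of ddr48 and rds1 are 1303 and 1928 bases. The kit marks the strand of the RNA, but the strand setting of the counting is not given in the sources used here, so reads of a gene and of its antisense partner cannot be told apart with certainty.

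SPNCRNA.832 had 147, 145 and 148 normalized counts in ppn1Δ, 185, 170 and 212 in swd22Δ, 256, 286 and 276 in dis2Δ, and 234, 186 and 210 in wild-type cells. Its ppn1Δ libraries were the lowest and its dis2Δ libraries the highest, the reverse of ddr48 among the mutants. By edgeR's quasi-likelihood test with Benjamini-Hochberg adjustment, its log2 fold change was -0.51 in ppn1Δ (SE 0.12, adjusted p = 0.00259), -0.15 in swd22Δ (SE 0.12, adjusted p = 0.349) and 0.38 in dis2Δ (SE 0.12, adjusted p = 0.0178). Between dis2Δ and ppn1Δ it differed by 0.89 (SE 0.12, adjusted p = 3.49e-05), whereas ddr48 differed by -2.21.

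SPAC343.20 had 158, 159 and 191 normalized counts in ppn1Δ, 155, 171 and 198 in swd22Δ, 270, 312 and 326 in dis2Δ, and 236, 249 and 263 in wild-type cells. The dis2Δ libraries were the highest, where those of rds1 were the lowest, but ppn1Δ and swd22Δ were below wild-type at both loci. In the same edgeR test its log2 fold change was -0.55 in ppn1Δ (SE 0.13, adjusted p = 0.00175), -0.52 in swd22Δ (SE 0.13, adjusted p = 0.00386) and 0.28 in dis2Δ (SE 0.12, adjusted p = 0.0770). Between dis2Δ and swd22Δ it differed by 0.79 (SE 0.13, adjusted p = 0.000314).

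**Figure D4:**
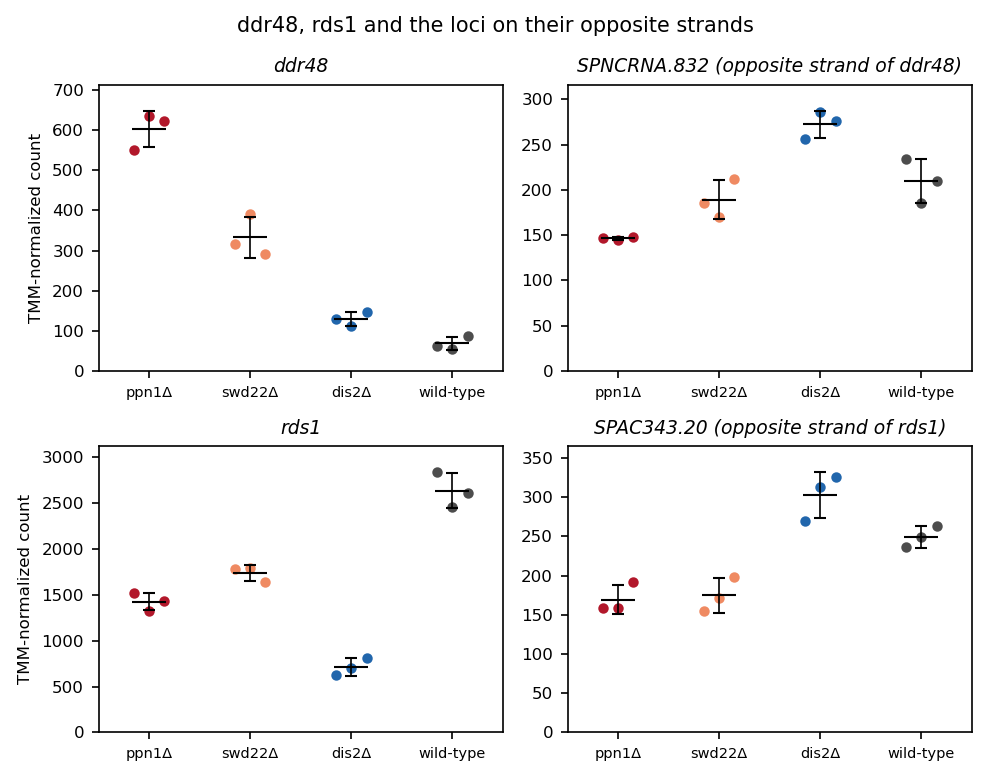
TMM-normalized counts (y axes, from 0) of ddr48 and rds1 (left) and of the loci annotated on their opposite strands, SPNCRNA.832 and SPAC343.20 (right), in each library by strain, with mean ± SD of 3. In dis2Δ both antisense loci are at their highest (256 to 286 and 270 to 326), whereas in ppn1Δ ddr48 is at its highest and SPNCRNA.832 at its lowest.

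The remaining overlaps are with sty1, ntp1, atf1, gpd1, hsp9 and tps1, and a second one with ddr48. SPNCRNA.622, opposite sty1, averaged 403 normalized counts in ppn1Δ, 344 in swd22Δ, 373 in dis2Δ and 400 in wild-type cells, with no difference from wild-type past an adjusted p of 0.05 in edgeR's test. SPNCRNA.1327, opposite ntp1, averaged 62.5, 61.4, 54.8 and 43.7 in the same strains, with log2 fold changes of 0.53, 0.49 and 0.32 in the 3 mutants, of which that in ppn1Δ passed (edgeR adjusted p of 0.0302, 0.0541 and 0.209). The non-coding loci on the same strand as atf1, gpd1 and hsp9 (SPNCRNA.1441, SPNCRNA.1657 and SPNCRNA.1071) averaged at most 23.4 normalized counts in any strain. The coding gene dbl4 shares 12 bases with tps1 on the same strand and was lower in all 3 mutants, at log2 fold changes of -0.54 in ppn1Δ, -0.55 in swd22Δ and -0.44 in dis2Δ (edgeR adjusted p of 8.65e-05, 0.000105 and 0.000798). avl9, which shares 82 bases with ddr48 on the opposite strand, averaged 1705, 1790, 1661 and 1463 normalized counts in ppn1Δ, swd22Δ, dis2Δ and wild-type cells, above ddr48 in each. It was higher in all 3 mutants, at log2 fold changes of 0.22 in ppn1Δ, 0.29 in swd22Δ and 0.18 in dis2Δ (edgeR adjusted p of 0.00363, 0.000512 and 0.0146).

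Of the flanking coding genes, isp4 beside atf1 was lower in all mutants, at log2 fold changes of -0.63 in ppn1Δ, -0.42 in swd22Δ and -0.95 in dis2Δ (SE 0.10 each, edgeR adjusted p of 6.09e-05, 0.00278 and 1.49e-06). isp4 encodes an oligopeptide transporter. Beside pcr1, aca1 moved against it and was higher in all mutants, at 0.44 in ppn1Δ, 0.66 in swd22Δ and 0.98 in dis2Δ (SE 0.065 each; edgeR adjusted p of 3.28e-05, 6.57e-07 and 5.45e-09). On the other side of pcr1, the ribosomal protein gene rpl801 was lower in ppn1Δ and swd22Δ, at log2 fold changes of -0.67 and -0.42, and had -0.10 in dis2Δ (edgeR adjusted p of 8.33e-06, 0.00107 and 0.374). wwm2 beside ntp1 was lower in all 3 mutants, at log2 fold changes of -0.89 in ppn1Δ, -0.35 in swd22Δ and -0.35 in dis2Δ (edgeR adjusted p of 9.39e-07, 0.00661 and 0.00626). SPAC24B11.05 beside sty1 was also lower in all 3, at -0.47, -0.45 and -0.24 (edgeR adjusted p of 8.49e-05, 0.000179 and 0.0186). jmj1 beside ddr48 was higher in ppn1Δ and swd22Δ, at 0.33 and 0.50, and had 0.14 in dis2Δ (edgeR adjusted p of 0.0119, 0.000671 and 0.277). In the same test, SPAC24B11.07c, SPBC215.06c, spg4, atg38, zip3 and SPAC343.21 did not pass an adjusted p of 0.05 in any mutant. fic1 passed as lower in dis2Δ only, at -0.20 (edgeR adjusted p = 0.0402). In ppn1Δ only, gta2 passed as lower and ski7 as higher, at -0.25 and 0.29 (edgeR adjusted p of 0.0355 and 0.0310).

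Over the 12 libraries, the gene pairs with the most similar profiles were hsp9 with ddr48 (Pearson r of log2 normalized counts 0.90), atf1 with rds1 (0.89), atf1 with gpd1 (0.87), sty1 with pcr1 (0.86) and tps1 with ntp1 (0.85). The pair with the most opposed profile was pcr1 with ddr48 (-0.70). These correlations are descriptions over libraries that come from 4 strains and share their differences.

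Outside the 9 genes, the 2 closest of 4735 coding loci were found for each by the same measure. For ddr48 they were SPAPB18E9.04c, an uncharacterized protein, and pho843, annotated as a phosphate transporter (r = 0.98 each). SPAPB18E9.04c stood at log2 fold changes of 2.07 in ppn1Δ, 1.75 in swd22Δ and 0.58 in dis2Δ, in the order of ddr48. For hsp9 they were SPCC1919.04 (r = 0.95) and the glucan glucosidase gene SPAC4H3.03c (r = 0.94), and for rds1 they were trs8501 (r = 0.95) and mug191 (r = 0.94).

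For the trehalose genes the closest loci included chaperone genes. tps1 was closest to bip1, which encodes the Hsp70 of the endoplasmic reticulum (r = 0.98), and hsp104, which encodes a protein disaggregase (r = 0.97), while ntp1 was closest to the disulfide isomerase gene pdi3 and again hsp104 (r = 0.89 each). hsp104 had log2 fold changes of 0.53 in ppn1Δ, 0.78 in swd22Δ and 0.05 in dis2Δ. In the same order, bip1 had 0.19, 0.30 and 0.09, and pdi3 had 0.01, 0.09 and -0.04. The part of the spread between replicates in these correlations was not tested.

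pcr1 was closest to the mitochondrial genes cyt1 (cytochrome c1) and yhm2 (a tricarboxylic acid carrier), at r = 0.97 each, with cyt1 at -0.89 in ppn1Δ, -0.97 in swd22Δ and -0.87 in dis2Δ. For sty1 the closest loci were SPCC1259.08 and the glucanase gene agn1 (r = 0.97 each), and for atf1 they were the kinase gene ssp1 and the kinase activator gene mob2 (r = 0.97 each). The closest to gpd1 were the permease gene per1 (r = 0.96) and dis2 itself (r = 0.95), the gene deleted in the dis2Δ libraries.

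A further 48 genes of the pathway, drawn up by role, were examined beside the 9. By edgeR's test (adjusted p at or below 0.05, with no fold cutoff), 8 were higher and 18 lower in ppn1Δ, 9 higher and 14 lower in swd22Δ, and 11 higher and 18 lower in dis2Δ. Over all loci tested, 24.5% were higher and 25.2% lower in ppn1Δ, 19.3% and 20.5% in swd22Δ, and 19.5% and 21.8% in dis2Δ. The 48 genes had a median log2 fold change of -0.07 in ppn1Δ, -0.03 in swd22Δ and -0.13 in dis2Δ, beside 0.01, -0.00 and 0.00 over all loci. Scaling by library totals alone shifted the median of all loci to 0.09 in ppn1Δ. It also moved the share of higher among all loci past the threshold in ppn1Δ to 61.1%, beside 49.3% with TMM, and the 48 genes to 13 higher and 13 lower in that mutant. Between dis2Δ and ppn1Δ, 10 of the 48 genes were higher and 8 lower in dis2Δ by the same test, where 16.1% of all loci were higher and 12.6% lower. With library totals alone, the share of higher among all loci past the threshold between these strains was 35.1%, beside 56.1% with TMM, and 10 of the 48 genes were higher and 14 lower.

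The sensor and cascade genes upstream of Sty1 were lower where they changed: of 8, 6 fell in ppn1Δ, 3 in swd22Δ and 4 in dis2Δ, and none rose. Their medians were -0.23, -0.14 and -0.16, and 25.2%, 20.5% and 21.8% of all loci tested fell in the same strains. mak3, a sensor histidine kinase gene, fell to 1238 ± 80.5 normalized counts in ppn1Δ, 1565 ± 104 in swd22Δ and 1644 ± 74.1 in dis2Δ, against 2111 ± 23.6 in wild-type cells (SD, n = 3 each). mak3 thereby changed by -0.77 (SE 0.06, edgeR adjusted p = 7.92e-08), -0.43 (SE 0.06, adjusted p = 5.02e-05) and -0.36 (SE 0.06, adjusted p = 0.000288) on the log2 scale. wis1, the MAP kinase kinase gene, chosen after its values were seen, fell in all 3 mutants by 0.46, 0.32 and 0.45 on the log2 scale. With library totals alone, 3 rather than 6 cascade genes fell in ppn1Δ.

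Phosphatase genes, whose products act on Sty1 or its pathway, showed 3 of 6 lower in ppn1Δ, 3 in swd22Δ and 2 in dis2Δ, and none higher (with library totals only, 1 was higher in swd22Δ). pyp1, which encodes a tyrosine phosphatase, had log2 fold changes of -0.31 in ppn1Δ, -0.51 in swd22Δ and -0.57 in dis2Δ (SE 0.08 each; edgeR adjusted p of 0.00393, 8.29e-05 and 2.79e-05). Of the 6 kinase and RNA-binding protein genes that act downstream of Sty1, 2 fell in ppn1Δ, 2 in swd22Δ and 5 in dis2Δ. Beside both lists, the shares of all loci that fell were 25.2% in ppn1Δ, 20.5% in swd22Δ and 21.8% in dis2Δ. Among the downstream genes, the RNA-binding protein gene cip2 had the largest change, at -0.71 in ppn1Δ, -0.59 in swd22Δ and -0.35 in dis2Δ (SE 0.07 each).

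Among 9 transcription factor and co-repressor genes that act beside Atf1 and Pcr1, 1 rose and 4 fell in ppn1Δ, 2 rose and 3 fell in swd22Δ, and 2 rose and 3 fell in dis2Δ. Of all loci tested, 24.5% rose and 25.2% fell in ppn1Δ, 19.3% and 20.5% in swd22Δ, and 19.5% and 21.8% in dis2Δ. The largest change in the list was that of ste11, the master regulator of mating, which averaged 810 ± 49.0 normalized counts in ppn1Δ, 982 ± 95.5 in swd22Δ and 1437 ± 298 in dis2Δ, against 4884 ± 794 in wild-type cells (SD, n = 3 each). It passed the cutoffs in every mutant, at log2 fold changes of -2.59, -2.32 and -1.76 (edgeR adjusted p of 2.12e-10, 9.03e-10 and 1.42e-08). atf31, another gene of the Atf family, passed them as higher in ppn1Δ, at 1.05 (SE 0.16, adjusted p = 4.65e-05), and stood at 0.98 in swd22Δ and 0.74 in dis2Δ. Its dis2Δ and ppn1Δ levels did not differ past the threshold (-0.31, SE 0.15, adjusted p = 0.135), nor did those of swd22Δ and ppn1Δ (-0.08, SE 0.15, adjusted p = 0.792).

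Of 6 other genes of trehalose and glycerol metabolism, 1 rose and 3 fell in ppn1Δ, 2 rose and 2 fell in swd22Δ, and 1 rose and 1 fell in dis2Δ. Over all loci, 24.5% rose and 25.2% fell in ppn1Δ, 19.3% and 20.5% in swd22Δ, and 19.5% and 21.8% in dis2Δ. dak2, a dihydroxyacetone kinase gene, fell by 0.70 on the log2 scale in ppn1Δ and by 0.68 in swd22Δ (SE 0.08 each), and had a value of -0.15 in dis2Δ (SE 0.08, edgeR adjusted p = 0.138). The direct contrast of dis2Δ with ppn1Δ gave 0.55 for dak2 (SE 0.08, adjusted p = 9.36e-05).

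Other genes that the core stress response induces were the list with the most rises: of 13, 6 rose and 0 fell in ppn1Δ, 5 rose and 1 fell in swd22Δ, and 8 rose and 3 fell in dis2Δ. Their medians were 0.18, 0.29 and 0.52. Among all loci tested, 24.5% rose and 25.2% fell in ppn1Δ, 19.3% and 20.5% in swd22Δ, and 19.5% and 21.8% in dis2Δ. The small heat shock protein gene hsp16 had 7814, 3808 and 7620 normalized counts in ppn1Δ, 9341, 4990 and 10024 in swd22Δ, 4856, 5680 and 4379 in dis2Δ, and 904, 1687 and 1619 in wild-type cells. Every mutant library was above every wild-type library, and the second libraries of ppn1Δ and swd22Δ were again the lowest of their strain. Its log2 fold changes were 2.19 in ppn1Δ (SE 0.28, edgeR adjusted p = 6.19e-06), 2.53 in swd22Δ (SE 0.28, adjusted p = 2.08e-06) and 1.82 in dis2Δ (SE 0.27, adjusted p = 5.64e-05). The glutathione S-transferase gene gst2 rose as well, by 1.78, 1.74 and 1.27 on the log2 scale (SE 0.17 each).

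Not all of the 13 followed. ctt1, which encodes catalase and was named after its values were seen, fell in swd22Δ by 0.50 and in dis2Δ by 0.68 on the log2 scale, and had -0.16 in ppn1Δ, short of the threshold. The list was written with the values of hsp16 known, so its count is not independent of that gene.

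**Figure D5:**
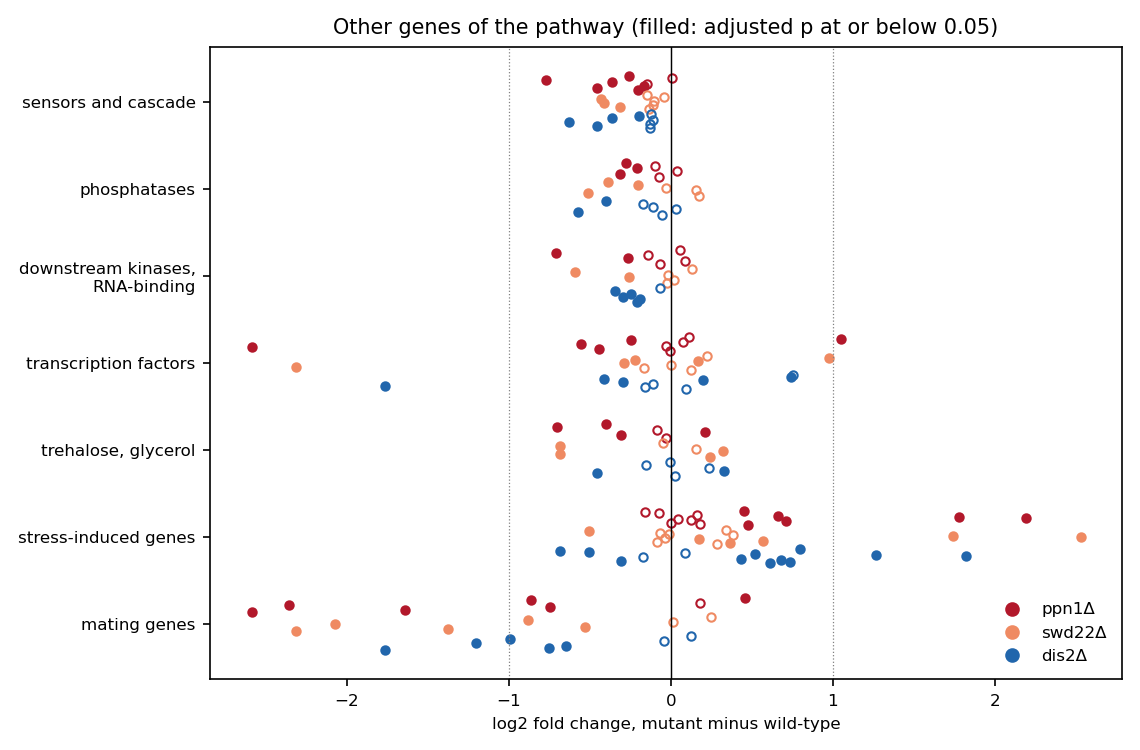
Log2 fold changes, mutant minus wild-type (x axis), of the other pathway genes by list and of the mating genes, for ppn1Δ, swd22Δ and dis2Δ; filled points had an adjusted p at or below 0.05, open points did not, and dotted lines mark 2-fold. Cascade points lie at or left of 0, the stress-induced list extends to 2.53 (hsp16) and ste11, the point at -2.59, is in both the factor and the mating lists.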

How the data were processed

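Per the labels, strand-specific libraries were made from poly(A)+ RNA and sequenced in paired ends. The authors mapped reads with HISAT2 2.1.0 to the ASM294v2 build, counted them with HTSeq 0.10.0, and deposited raw counts per annotated locus without normalization. The counting strand setting is not given in the sources used here. The 6987 entries held 6986 IDs; 1 repeated ID was summed, and 0 per-sample columns were left out.

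After filterByExpr, all 12 libraries entered 1 quasi-likelihood fit with a mean for each strain and TMM scaling (edgeR 4.0.16, R 4.3.3), with Benjamini-Hochberg adjustment over 6110 loci. The cutoffs were those of the study: an adjusted p of 0.05 or less, 2-fold, and a mean normalized count of 100 in either strain. The fit was first tested on simulated data. Depth was 17616688 to 23435936 counts per library, so the spread between replicates limits precision, and counting noise adds to it near 100 counts. In every strain replicate counts differed beyond sampling noise (chi-square 5.41 to 24.0 per degree of freedom).

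The annotation at hand is of the later build ASM294v3, used for names (6846 of 6986 IDs matched), strand, neighbors and exon lengths; no coordinates or sequences are printed. Correlations used log2(normalized count + 1). The 9 genes and the lists were chosen with earlier results of these data known. Named genes are all 9, pathway genes past the cutoffs in a mutant or else the list's largest change, and overlapping loci. The 2 closest profiles per gene are also named. Flanking coding loci are named, flanking non-coding loci are not, and other genes were chosen after their values were seen. Alternatives were DESeq2 1.42.0, relative log expression factors, library totals only, other count filters, other cutoffs, the strains compared alone, the replicate number as a block, and each library left out. Figures were drawn with Python 3.11.15, pandas 2.3.3, numpy 2.4.6 and matplotlib 3.10.9.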

Additional observations from a re-analysis of the deposited data

How the results depend on the processing

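Over DESeq2, relative log expression factors, library totals only, a filter of 10 counts in each library or no filter, fits of the compared strains alone, the replicate block, no mean-count cutoff and an adjusted p cutoff of 0.01, every count of the 9 genes and of the 48 other pathway genes past the cutoffs stayed within 1.5 times the reported one. Without a fold-change cutoff, the 9 genes gave 3 higher and 3 lower in ppn1Δ, 3 higher and 4 lower in swd22Δ, and 1 higher and 5 lower in dis2Δ. Between mutants they gave 5 for dis2Δ and ppn1Δ, 6 for dis2Δ and swd22Δ and 2 for swd22Δ and ppn1Δ. By edgeR's adjusted p alone, 24.5% of all loci were higher and 25.2% lower in ppn1Δ, 19.3% and 20.5% in swd22Δ, and 19.5% and 21.8% in dis2Δ. Between dis2Δ and ppn1Δ, 16.1% were higher and 12.6% lower in dis2Δ. Of 6110 loci, 593 were higher and 542 lower in dis2Δ than in swd22Δ. In swd22Δ, 322 were higher and 64 lower than in ppn1Δ. Since the 9 genes were chosen with these contrasts known, nothing is read from their counts in this section. Without a fold-change cutoff but with the other cutoffs, the 48 other genes gave 8 higher and 18 lower in ppn1Δ, 9 and 14 in swd22Δ, and 10 and 18 in dis2Δ. By adjusted p alone, 11 of them were higher in dis2Δ. The shares of all loci given above stand beside these counts too. With a mean-count cutoff of 500, 0 of the 9 genes passed as higher in swd22Δ and 1 between dis2Δ and swd22Δ (rds1), because ddr48 is below that level in swd22Δ, dis2Δ and wild-type cells. Leaving out each library in turn, the 9 genes gave 2 to 2 higher and 0 to 0 lower in ppn1Δ, 1 to 1 higher and 0 to 0 lower in swd22Δ, 0 to 1 higher and 1 to 1 lower in dis2Δ, 2 to 3 between dis2Δ and ppn1Δ, 2 to 2 between dis2Δ and swd22Δ and 0 to 0 between swd22Δ and ppn1Δ. The other pathway genes gave 2 to 3 higher in ppn1Δ and in swd22Δ, 2 to 2 higher in dis2Δ and 1 to 1 lower in each. The gene that came or went was atf31, lost in ppn1Δ without the third library of that strain and gained in swd22Δ without its second library or the first wild-type library. With library totals only, sty1 stood at -0.18, atf1 at -0.01 and pcr1 at -0.56 in ppn1Δ. Between dis2Δ and ppn1Δ, that scaling moved the median of all loci from -0.02 to -0.10, and rds1 lay at the edge of the cutoff there. The limit of 1.5 times lets a count of 2 become 3.

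Same-numbered libraries of different strains are linked in the labels by the number only. Of 18 such pairs, 9 had deviations from their strain means that correlated over 0.1 (r from -0.44 to 0.47). Pairs with different numbers were not compared, so a batch shared by same-numbered libraries was not tested. With the replicate block, 2 of the 9 genes passed as higher in ppn1Δ, 1 in swd22Δ and 0 in dis2Δ, as without it. For genes near 100 normalized counts, ddr48 in wild-type cells above all, counting noise adds to the spread between replicates.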

Other observations

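Of the 7 mating and meiosis genes, 5 fell in each mutant (edgeR adjusted p at or below 0.05). The shares of all loci that fell were 25.2% in ppn1Δ, 20.5% in swd22Δ and 21.8% in dis2Δ. fus1, which encodes a formin for cell fusion, rose in ppn1Δ by 0.46 on the log2 scale, where 24.5% of all loci rose. It stood at 0.25 in swd22Δ and 0.12 in dis2Δ, short of the threshold. The median log2 fold change of the list was -0.86 in ppn1Δ, -0.88 in swd22Δ and -0.75 in dis2Δ. Besides ste11, mei2, the RNA-binding regulator of meiosis, passed the cutoffs in all 3 mutants, at 288 ± 39.2 normalized counts in ppn1Δ, 352 ± 33.6 in swd22Δ and 642 ± 25.2 in dis2Δ, against 1482 ± 159 in wild-type cells (SD, n = 3 each). The pheromone MAP kinase gene spk1 passed them in ppn1Δ and swd22Δ, at -1.64 and -1.37, and stood at -0.75 in dis2Δ. Between dis2Δ and ppn1Δ, mei2 differed by 1.15 (SE 0.11, edgeR adjusted p = 6.32e-07). With library totals only, 4 rather than 5 of the list fell in swd22Δ.

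Cytoplasmic ribosomal protein genes, which the core stress response represses, numbered 131. Of these, 4 rose and 50 fell in ppn1Δ, 0 rose and 43 fell in swd22Δ, and 14 rose and 13 fell in dis2Δ, by edgeR's adjusted p alone, where 24.5% of all loci rose and 25.2% fell in ppn1Δ, 19.3% and 20.5% in swd22Δ, and 19.5% and 21.8% in dis2Δ. The median log2 fold changes were -0.13, -0.14 and 0.03. With library totals only the counts were 20 and 47 in ppn1Δ, 2 and 63 in swd22Δ, and 31 and 16 in dis2Δ, with medians of -0.06, -0.12 and 0.03. Between dis2Δ and ppn1Δ, 53 were higher and 4 lower in dis2Δ by the edgeR test, where 16.1% of all loci were higher and 12.6% lower. The median difference was 0.17 on the log2 scale, beside -0.02 over all loci. With library totals only, 47 were higher and 6 lower, and the median difference was 0.09, beside -0.10 over all loci.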
